A study of Mus musculus with 12 samples.

Results

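The mitochondrial ribosomal protein genes were taken as every row of the expression table whose symbol is MRPL or MRPS followed by a number and at most 1 letter from A to C, which gave 78 of 36292 rows: 49 named for the large subunit (MRPL) and 29 for the small subunit (MRPS). Rows entered the set by symbol alone, but the set itself was chosen with earlier results of these data known. All 78 passed the filter on low counts, as did 15836 genes in all. RNA came from subcutaneous xenografts of Hep3B, a human hepatocellular carcinoma line, grown in BALB/c nu/nu female mice injected at about 8 weeks of age. Dosing began at a mean tumor volume of about 500 mm3. Mice received H3B-6527 at 300 mg/kg, H3B-6527 at 300 mg/kg with lenvatinib at 10 mg/kg (the combination), lenvatinib at 10 mg/kg, or vehicle, by oral gavage once daily, and tumors were taken 8 hours after dose 4, with 3 tumors from separate mice per group. H3B-6527 is an inhibitor of the receptor kinase FGFR4, and lenvatinib inhibits several receptor kinases, among them the VEGF and FGF receptors. All groups, vehicle included, carry the same single cell line in the same nude host, which lacks mature T cells.

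The mitochondrial ribosome (mitoribosome) translates the few proteins encoded by mitochondrial DNA, all of them core subunits of the respiratory chain complexes and ATP synthase. Its ribosomal RNAs come from mitochondrial DNA, whereas all of its proteins are encoded in the nucleus, made in the cytosol and imported. The small subunit holds the messenger RNA and reads the codon, and the large subunit joins the amino acids and passes the growing chain through an exit tunnel to the inner membrane. Many of the proteins have bacterial counterparts, and the others were acquired in mitochondria. Symbols do not always match position: in structures of the mammalian mitoribosome, the products of MRPS18A and MRPS30 sit in the large subunit, and MRPS36 has since been assigned to the oxoglutarate dehydrogenase complex. By structure the 78 genes therefore comprise 51 of the large subunit, 26 of the small subunit and MRPS36.

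Libraries held between 23819193 and 40944798 estimated counts. Cell type markers were summed as CPM, the count scaled to a common library size, here by library totals. Of the markers of Hep3B and hepatocytes, 10 of 10 were present, and their sum was 141000 to 195000 CPM in H3B-6527 tumors, 162000 to 178000 in combination tumors, 99600 to 115000 in lenvatinib tumors and 93900 to 101000 in vehicle tumors. Of the host markers, read under human symbols, the 5 endothelial genes summed to 0.124 to 0.378 CPM in H3B-6527 tumors and 0.111 to 0.298 CPM in vehicle tumors. The 5 fibroblast markers summed to 25.4 to 34.7 CPM with H3B-6527, 30.3 to 34.7 with the combination, 47.8 to 55.0 with lenvatinib and 50.5 to 57.8 with vehicle. The 5 macrophage markers summed to 146 to 196 CPM with H3B-6527, 152 to 185 with the combination, 178 to 192 with lenvatinib and 206 to 226 with vehicle. The macrophage genes did not move one way: with TMM scaling LYZ averaged 9.50, 9.47, 76.2 and 107 CPM in H3B-6527, combination, lenvatinib and vehicle tumors, whereas CD68 averaged 156, 158, 101 and 93.0 CPM in the same groups, and CSF1R and ADGRE1, at most 1.65 CPM on average in any group, had higher means with H3B-6527 and with the combination than with vehicle. The 2 adipocyte markers summed to 27.9 to 68.3 CPM with H3B-6527, 31.6 to 48.8 with the combination, 4.54 to 7.32 with lenvatinib and 3.37 to 3.83 with vehicle. That sum is PLIN1, since ADIPOQ, the defining adipocyte gene, had 7 counts over all 12 libraries. In the fibroblast sum most counts were those of PDGFRB, and DCN and LUM had 11 and 18 counts over all libraries. The part of these shifts in the results on the mitochondrial ribosomal protein genes was not tested. Counts come from bulk tumor RNA, in which fewer cells of a type and less RNA per cell cannot be told apart.

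Transcripts of the mitochondrial ribosomal protein genes made up a smaller share of all counts in the tumors that received H3B-6527, alone or combined. Together the 78 genes took 0.150%, 0.186% and 0.180% of all counts in the H3B-6527 tumors and 0.177%, 0.166% and 0.177% in the combination tumors. The shares were 0.213%, 0.209% and 0.199% in lenvatinib tumors and 0.219%, 0.206% and 0.223% in vehicle tumors. On this scale the H3B-6527 and combination tumors all lay below the lenvatinib and vehicle tumors. A share of all counts also depends on the most abundant genes. ALB alone took 8.83%, 8.00% and 6.06% of all counts in H3B-6527 tumors and 7.38%, 7.71% and 6.85% in combination tumors. It took 4.29%, 4.54% and 3.60% in lenvatinib tumors and 3.80%, 3.78% and 3.62% in vehicle tumors. The part of ALB in the shares of the 78 genes was not tested. With CPM scaled by TMM factors, as in all values from here on, and not corrected for gene length, the large-subunit genes summed to 1077 ± 125 in H3B-6527 tumors, 1103 ± 27.9 in combination tumors, 1236 ± 63.3 in lenvatinib tumors and 1259 ± 60.6 in vehicle tumors (SD, n = 3 each). The sums of the small-subunit genes were 695 ± 75.3, 717 ± 7.88, 789 ± 49.6 and 789 ± 39.6 CPM in H3B-6527, combination, lenvatinib and vehicle tumors. Combination tumors lay below every vehicle tumor in both sums, while the H3B-6527 and vehicle ranges overlapped in both.

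The balance between the subunits was read from the ratio of their sums. The ratio of large to small summed CPM was 1.54, 1.56 and 1.55 in H3B-6527 tumors, 1.55, 1.51 and 1.56 in combination tumors, 1.58, 1.54 and 1.59 in lenvatinib tumors, and 1.57, 1.60 and 1.62 in vehicle tumors. Each tumor that received H3B-6527 thus had a lower ratio than any vehicle tumor, and the group means were 1.55 ± 0.0128 with H3B-6527, 1.54 ± 0.0227 with the combination, 1.57 ± 0.0252 with lenvatinib and 1.60 ± 0.0267 with vehicle (SD, n = 3 each). With genes assigned by structure the ratios were 1.73 ± 0.00572 with H3B-6527, 1.72 ± 0.0261 with the combination, 1.75 ± 0.0227 with lenvatinib and 1.79 ± 0.0296 with vehicle. With genes assigned by symbol, lenvatinib tumor 2, at a ratio of 1.54, also lay below every vehicle tumor. With genes assigned by structure, lenvatinib tumors 1 and 2, at 1.753 and 1.723, lay below the lowest vehicle tumor, at 1.756. Lenvatinib tumor 2 then lay within the range of the H3B-6527 tumors. Abundant genes weigh most in these sums. The median log2 fold change per gene did not show the same order throughout. Against vehicle it was -0.19 over large-subunit and -0.18 over small-subunit genes with H3B-6527, and -0.14 and -0.17 with the combination. No p-value is given for these sums and ratios.

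**Figure D1:**
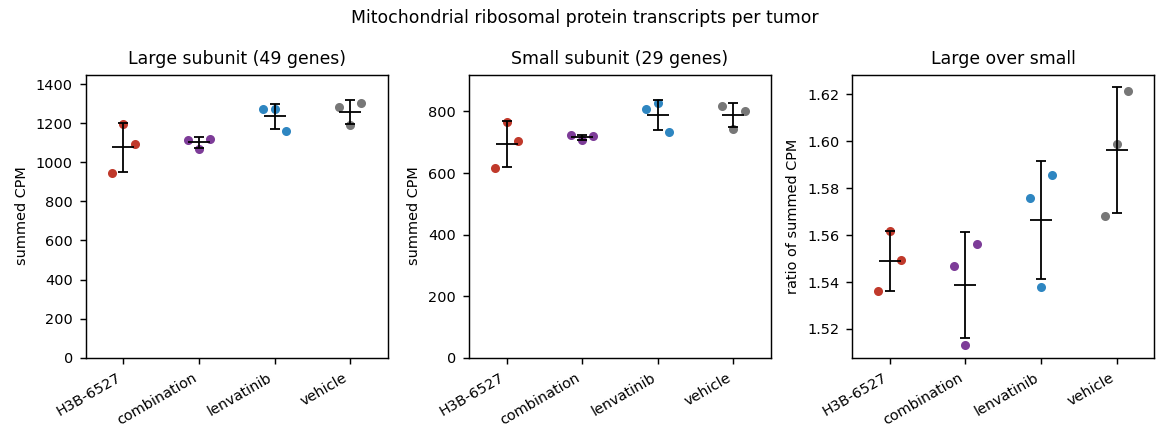
Summed CPM (TMM-scaled) of the 49 large-subunit and 29 small-subunit genes and the ratio of the 2 sums, by treatment group; points are tumors, bars the mean and SD (n = 3). The ratio axis does not start at 0. The lowest sums belong to 1 H3B-6527 tumor, at 945 and 615 CPM, and the combination tumors lie close together.

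Tumors of 1 group differed in the level of the whole set. Relative to the vehicle mean, the median gene of the 78 stood at -0.43, -0.06 and -0.19 on the log2 scale in H3B-6527 tumors 1, 2 and 3, at -0.13, -0.15 and -0.11 in the combination tumors, at 0.02, 0.04 and -0.11 in the lenvatinib tumors and at 0.04, -0.09 and 0.04 in the vehicle tumors. By this median H3B-6527 tumor 1 was the lowest of the 12, and H3B-6527 tumor 2 was within the range of the vehicle tumors. The number of genes below the vehicle mean did not set H3B-6527 tumor 1 apart, at 66 of 78 against 67 in vehicle tumor 2.

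The first comparison set the FGFR4 inhibitor given alone against vehicle. In edgeR's quasi-likelihood test with Benjamini-Hochberg adjustment over all genes tested, 18 of the 78 fell (12 large-subunit, 6 small-subunit) and 0 rose. Over all genes tested, 24.3% fell and 25.2% rose, so that the share of mitochondrial ribosomal protein genes that fell, 23.1%, was close to the background and no member rose. The median log2 fold change was -0.19 over the large subunit and -0.18 over the small subunit, against 0.01 over all genes, and 62 of the 78 values were below 0, where 49.5% of all genes were. In 28 of the 78 genes every H3B-6527 tumor lay below every vehicle tumor, and in 2 of the 78 every one lay above. Over all 15836 genes tested, 4417 (27.9%) and 4446 (28.1%) did so. Values of the 78 ran between -0.74 and 0.48. Without H3B-6527 tumor 1 the median of the 78 was -0.12, with 12 lower and 2 higher (MRPL2 and MRPL49, which had not passed with all tumors), and without H3B-6527 tumor 2 it was -0.29, with 35 called. The count was 11 without vehicle tumor 1 and 11 without vehicle tumor 3. With library totals in place of TMM it was 45, all lower; that scaling moved the median of all genes to -0.11 and the median of the 78 to -0.31. Over all genes tested, 4960 were lower at that scaling, against 3842 with TMM.

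Among the large-subunit proteins that are conserved from bacteria, MRPL3, whose product lies near the peptidyl transferase center, was among the most reduced. It measured 34.3, 42.2 and 52.6 CPM in H3B-6527 tumors and 68.1, 65.5 and 69.6 CPM in vehicle tumors, with no overlap, a log2 fold change of -0.66 ± 0.12 (SE; adjusted p = 0.000653, edgeR). MRPL12 encodes the stalk protein that recruits translation factors to the ribosome. Its levels were 3.70, 3.69 and 5.86 CPM in H3B-6527 tumors against 7.23, 6.22 and 7.41 CPM in vehicle tumors, a change of -0.67 ± 0.18 (SE; adjusted p = 0.0089, edgeR). For both genes H3B-6527 tumor 3 was the highest of its group and still lay below the lowest vehicle tumor. MRPL47, a protein near the exit tunnel, stood at 26.0, 36.6 and 33.4 CPM in H3B-6527 tumors and 48.1, 47.5 and 50.7 CPM in vehicle tumors, and fell by 34.4% (adjusted p = 0.000457, edgeR). In MRPL32, whose product is processed by the m-AAA protease on import, the values were 16.1, 19.9 and 15.5 CPM with H3B-6527 and 27.6, 23.7 and 28.7 CPM with vehicle, and the gene fell by 35.6% (adjusted p = 0.000782, edgeR). MRPL27, another protein near the peptidyl transferase center, fell by 24.7% (adjusted p = 0.00361, edgeR), with 12.1, 15.6 and 14.9 CPM in H3B-6527 tumors and 18.7, 18.6 and 19.3 CPM in vehicle tumors. These 5 genes were called against vehicle under each of the 18 alternatives run for H3B-6527.

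Large-subunit proteins acquired in mitochondria fell as well. MRPL42 had 21.6, 25.1 and 25.2 CPM in H3B-6527 tumors and 36.8, 32.9 and 38.7 CPM in vehicle tumors, a log2 fold change of -0.59 ± 0.09 (SE; adjusted p = 0.000149, edgeR), the smallest p-value of the 78 genes in this comparison. MRPL48, part of the central protuberance, had 7.33, 10.1 and 8.84 CPM in H3B-6527 tumors and 13.6, 12.3 and 13.8 CPM in vehicle tumors, and fell by 34.1% (adjusted p = 0.00084, edgeR). MRPL50 fell by 28.5% (adjusted p = 0.00319, edgeR). Its H3B-6527 values of 11.3, 14.1 and 13.6 CPM all lay below its vehicle values of 18.4, 17.6 and 18.6 CPM. The 4 other large-subunit genes that fell, whether conserved from bacteria or not, were MRPL17, MRPL19, MRPL20 and MRPL43. Their log2 fold changes lay between -0.52 and -0.22. Each of the 4 lost its call with only the compared groups in the fit. All 4 calls were also lost without H3B-6527 tumor 1, vehicle tumor 1 or vehicle tumor 3. That of MRPL43 was also lost without vehicle tumor 2 or H3B-6527 tumor 3. That of MRPL19 was also lost without H3B-6527 tumor 3, lenvatinib tumor 1 or any combination tumor. MRPL17 passed although its groups overlapped.

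In the small subunit the deepest fall was that of MRPS23, a protein of mitochondria only. It measured 8.85, 12.03 and 13.1 CPM in H3B-6527 tumors and 18.6, 18.7 and 19.1 CPM in vehicle tumors, a log2 fold change of -0.74 ± 0.12 (SE; adjusted p = 0.000299, edgeR). MRPS27, a pentatricopeptide repeat protein, had 24.7, 26.6 and 30.7 CPM with H3B-6527 and 34.7, 33.0 and 35.4 CPM with vehicle, a change of -0.33 ± 0.09 (SE; adjusted p = 0.00729, edgeR). Both genes were called under all 18 alternatives, unlike the other 4. MRPS7, a protein of the head of the small subunit, had 32.8, 44.5 and 42.9 CPM in H3B-6527 tumors and 54.2, 46.7 and 54.6 CPM in vehicle tumors (log2 fold change -0.37, adjusted p = 0.0168, edgeR). MRPS21 and MRPS17 passed with overlapping groups. MRPS21 had 19.8, 35.8 and 26.6 CPM with H3B-6527 and 40.9, 34.6 and 40.4 CPM with vehicle (log2 fold change -0.49, adjusted p = 0.0203, edgeR). MRPS17 had 14.8, 19.5 and 13.4 CPM with H3B-6527 and 22.1, 19.2 and 22.01 CPM with vehicle (log2 fold change -0.40, adjusted p = 0.0308, edgeR). In these 2 genes H3B-6527 tumor 2 lay above the lowest vehicle tumor. The calls of MRPS7, MRPS17 and MRPS21 were lost without vehicle tumor 1 and without vehicle tumor 3, those of MRPS7 and MRPS17 also without H3B-6527 tumor 1, and that of MRPS17 also without H3B-6527 tumor 3, with adjusted p-values up to 0.0925. All 3 were also lost with only the compared groups in the fit (adjusted p = 0.0554 for MRPS7, 0.0659 for MRPS17 and 0.0804 for MRPS21, edgeR).

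**Figure D2:**
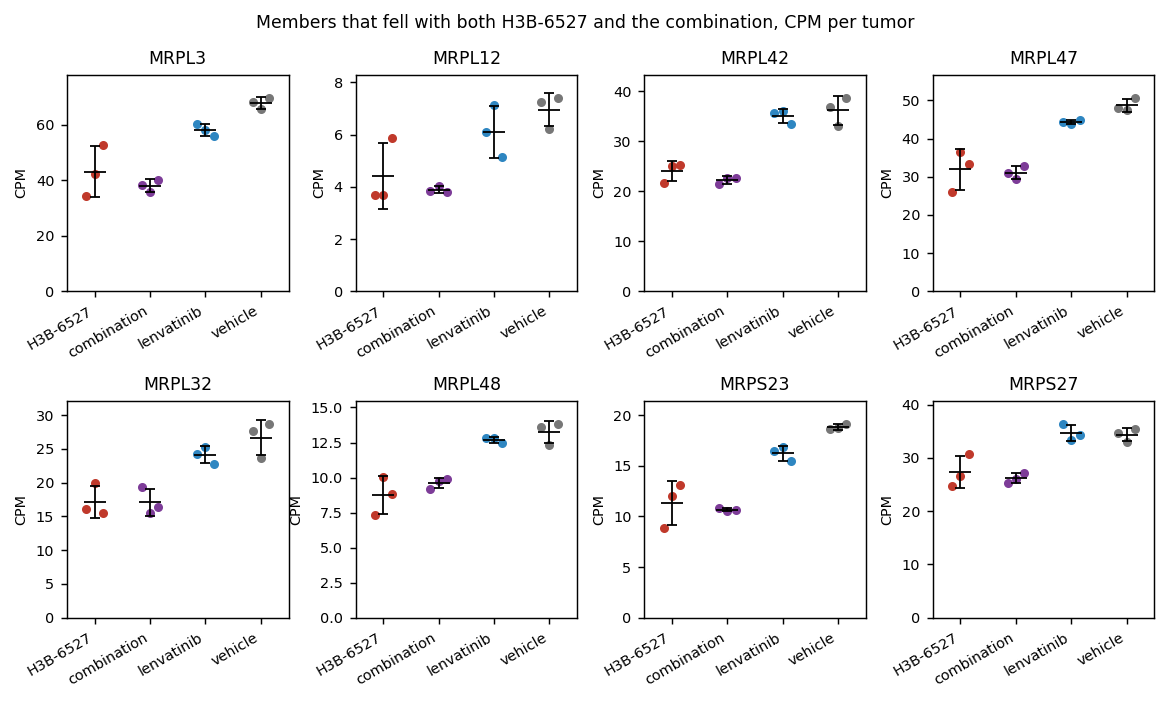
CPM per tumor for 8 genes that passed the test with both H3B-6527 and the combination, by treatment group; points are tumors, bars the mean and SD (n = 3). For each gene the H3B-6527 and combination tumors lie below every vehicle tumor, as in MRPS23, with at most 13.1 CPM with H3B-6527, 10.8 CPM with the combination and at least 18.6 CPM with vehicle.

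The second comparison set both inhibitors given together against vehicle. Of the 78 genes 21 fell (14 large-subunit, 7 small-subunit) and 2 rose, both of the large subunit, by the same edgeR test. Over all genes 25.3% fell and 24.8% rose, against 26.9% and 2.56% of the mitochondrial ribosomal protein genes. The median log2 fold change was -0.14 in the large subunit and -0.17 in the small subunit, against 0.01 over all genes, 54 of the 78 values were below 0, where 49.5% of all genes were, and values ran between -0.84 and 0.76. In 34 of the 78 genes every combination tumor lay below every vehicle tumor, and in 5 of the 78 every one lay above. Over all 15836 genes tested, 5191 (32.8%) and 5037 (31.8%) did so. The vehicle tumors are the same ones set against H3B-6527 alone. Leaving out 1 tumor gave 12 called genes without vehicle tumor 1, 11 without vehicle tumor 3, 12 without combination tumor 1 and 13 without combination tumor 2. With library totals 34 were lower and 0 higher, and the median moved to -0.14 over all genes and to -0.30 over the 78. Over all genes tested, 5339 were then lower, against 4006 with TMM.

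MRPL12 and MRPL3 had the deepest falls. Combination tumors held 3.83, 4.04 and 3.78 CPM of MRPL12 against 7.23, 6.22 and 7.41 CPM in vehicle tumors, a log2 fold change of -0.84 ± 0.18 (SE; adjusted p = 0.00221, edgeR). MRPL3 was at 38.3, 35.6 and 40.1 CPM in combination tumors and 68.1, 65.5 and 69.6 CPM in vehicle tumors, a change of -0.83 ± 0.12 (SE; adjusted p = 0.000116, edgeR). The 3 combination tumors lay close together in both genes. MRPS23 followed at 10.8, 10.5 and 10.7 CPM with the combination and 18.6, 18.7 and 19.1 CPM with vehicle, a change of -0.82 ± 0.12 (SE; adjusted p = 0.000137, edgeR). MRPL42 had 21.4, 22.7 and 22.7 CPM with the combination and 36.8, 32.9 and 38.7 CPM with vehicle, a change of -0.70 ± 0.09 (SE; adjusted p = 4.22e-05, edgeR). Neither gene's groups came near to overlapping. MRPL47 fell by 36.3% (adjusted p = 0.000278, edgeR), MRPL32 by 35.8% (adjusted p = 0.000733, edgeR) and MRPL48 by 27.4% (adjusted p = 0.0045, edgeR).

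MRPS27 had 25.4, 26.0 and 27.1 CPM in combination tumors and 34.7, 33.0 and 35.4 CPM in vehicle tumors, and fell by 23.8% (adjusted p = 0.00247, edgeR). MRPS17, a protein conserved from bacteria, was at 15.5, 14.7 and 13.8 CPM with the combination and 22.1, 19.2 and 22.01 CPM with vehicle, with no overlap (log2 fold change -0.52, adjusted p = 0.00808, edgeR). These small-subunit calls held under all 18 alternatives. MRPS9, a protein of the head of the small subunit, had 17.8, 16.8 and 20.5 CPM with the combination and 24.5, 21.2 and 25.8 CPM with vehicle (log2 fold change -0.38, adjusted p = 0.0207, edgeR), and MRPS7 had 43.5, 39.2 and 43.5 CPM with the combination and 54.2, 46.7 and 54.6 CPM with vehicle (log2 fold change -0.30, adjusted p = 0.0435, edgeR). The groups did not overlap in either gene, but both calls were lost without vehicle tumor 1, vehicle tumor 3, combination tumor 1 or combination tumor 2, and that of MRPS7 also without combination tumor 3 or lenvatinib tumor 1. The other 9 genes that fell were MRPL13, MRPL19, MRPL20, MRPL27, MRPL37, MRPL39, MRPL45, MRPL50 and MRPS30, besides MRPS18C, which is described with its paralogs. MRPL45, which anchors the ribosome to the inner membrane, changed by -0.28 ± 0.07 (SE; adjusted p = 0.00757, edgeR) and held under all 18 alternatives, as did MRPL50. MRPL27 changed by -0.26 (adjusted p = 0.0354, edgeR) and lost its call without the filter on low counts and without any single vehicle or combination tumor, with adjusted p-values up to 0.0978. MRPL13, MRPL19, MRPL20, MRPL37 and MRPL39 each lost theirs without vehicle tumor 1, vehicle tumor 3 or combination tumor 1, MRPL19, MRPL20, MRPL37 and MRPL39 also without combination tumor 2, MRPL20, MRPL37 and MRPL39 also without vehicle tumor 2, MRPL19 and MRPL20 also without combination tumor 3, and MRPL20 and MRPL39 also without any single lenvatinib tumor.

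The 2 genes that rose were MRPL23 and MRPL41. MRPL23, a protein at the exit tunnel, had 51.4, 41.7 and 39.6 CPM in combination tumors and 32.1, 34.4 and 32.3 CPM in vehicle tumors, a log2 fold change of 0.43 ± 0.13 (SE; adjusted p = 0.0171, edgeR). MRPL41, a protein acquired in mitochondria, was at 3.54, 3.66 and 2.54 CPM with the combination and 2.51, 1.22 and 1.996 CPM with vehicle, a change of 0.76 ± 0.27 (SE; adjusted p = 0.0322, edgeR). In MRPL41 the lowest combination tumor and the highest vehicle tumor were nearly level. Both calls were lost when library totals replaced TMM, with adjusted p-values of 0.0733 for MRPL23 and 0.0603 for MRPL41, and without vehicle tumor 3 or combination tumor 1; that of MRPL23 was also lost without vehicle tumor 1, and that of MRPL41 without vehicle tumor 2 or combination tumor 2. With H3B-6527 alone the changes were 0.09 (adjusted p = 0.585, edgeR) in MRPL23, at 36.6, 40.3 and 28.4 CPM, and 0.48 (adjusted p = 0.16, edgeR) in MRPL41, at 2.80, 3.23 and 1.88 CPM.

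**Figure D3:**
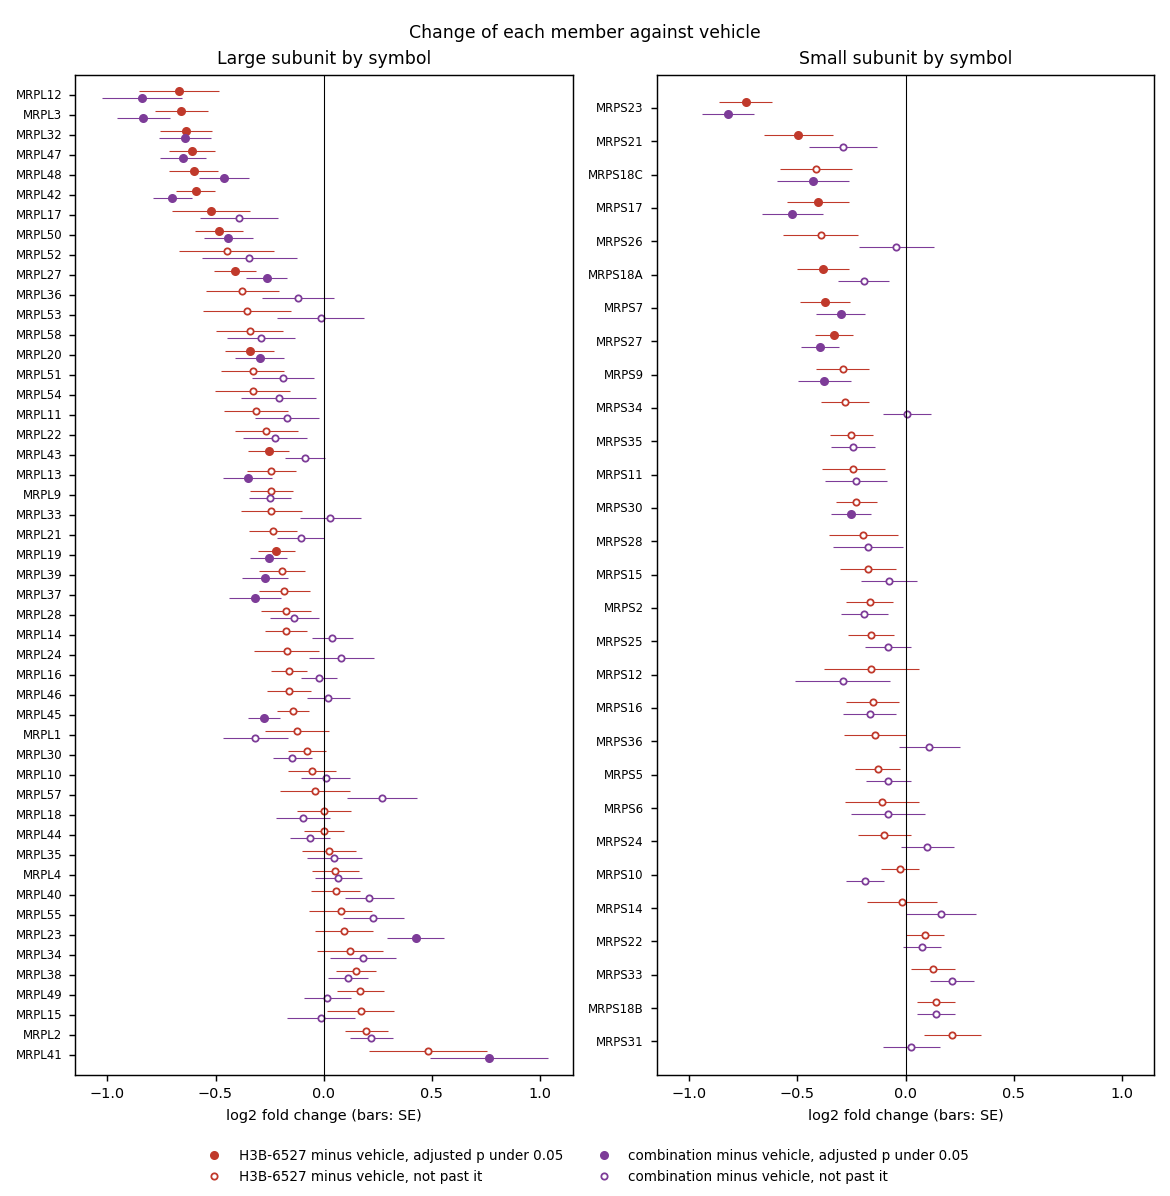
Log2 fold change of each of the 78 genes against vehicle, with H3B-6527 and with the combination, split by subunit symbol and ordered by the H3B-6527 value; bars are SE and filled points passed an adjusted p of 0.05. MRPL12, MRPL3 and MRPS23 lie lowest, down to -0.84, and MRPL41 highest, at 0.76 with the combination.

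Lenvatinib against vehicle gave 0 calls among the 78 genes and 0% of all genes in edgeR's test, and 0 among the 78 with DESeq2 and with limma voom. Over all genes DESeq2 called 245 and limma voom 8. At an unadjusted p under 0.05 in edgeR there was 1 member, MRPL40, where 10.7% of all genes reached it. The log2 fold changes of the 78 ran between -0.22 and 0.33, with a median of -0.01, and their SE between 0.07 and 0.27. MRPL3 lay at the low end, with 60.1, 58.2 and 55.8 CPM in lenvatinib tumors and 68.1, 65.5 and 69.6 CPM in vehicle tumors; its groups did not overlap, but its change of -0.22 ± 0.12 (SE) did not pass (adjusted p = 0.542, edgeR). MRPS23, at 16.5, 16.9 and 15.4 CPM with lenvatinib and 18.6, 18.7 and 19.1 CPM with vehicle, was similar, with a change of -0.21 (adjusted p = 0.572, edgeR).

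The treated groups were also set against each other. Combination against H3B-6527 gave 0 calls among the 78 with edgeR, DESeq2 and limma voom, where 0.0126% of all genes passed with edgeR. Over all genes DESeq2 called 98 and limma voom 2. With edgeR an unadjusted p under 0.05 was found in 3 members, MRPL14, MRPL23 and MRPS34, and in 9.42% of all genes. Log2 fold changes ran between -0.19 and 0.35. Combination against lenvatinib gave 13 lower genes (9 large-subunit, 4 small-subunit) and 0 higher, with 20.9% of all genes lower and 19.1% higher. H3B-6527 against lenvatinib gave 16 lower genes (9 large-subunit, 7 small-subunit) and 0 higher, with 20.6% of all genes lower and 20.5% higher. MRPL42 had the smallest p-value in both comparisons, with 21.4, 22.7 and 22.7 CPM in combination tumors, 21.6, 25.1 and 25.2 CPM in H3B-6527 tumors and 35.6, 35.9 and 33.3 CPM in lenvatinib tumors. Its log2 fold change was -0.65 for the combination against lenvatinib (adjusted p = 0.000167, edgeR) and -0.54 for H3B-6527 against lenvatinib (adjusted p = 0.000453, edgeR). MRPL3, MRPS23, MRPL47 and MRPS27 followed in the combination against lenvatinib, with changes of -0.61, -0.61, -0.52 and -0.41 (adjusted p between 0.00182 and 0.00313, edgeR), and MRPL48, MRPL47, MRPS23 and MRPL27 in H3B-6527 against lenvatinib, with changes of -0.54, -0.48, -0.53 and -0.41 (adjusted p between 0.00258 and 0.00499, edgeR). The count for the combination against lenvatinib was 21 without H3B-6527 tumor 1, 8 without lenvatinib tumor 1, 8 without lenvatinib tumor 2 and 7 without combination tumor 1. For H3B-6527 against lenvatinib it was 33 without H3B-6527 tumor 2 and 10 without H3B-6527 tumor 1, lenvatinib tumor 1 or lenvatinib tumor 2. The test of non-additivity, which asks whether the combination differs from the sum of the single changes, called 0 of the 78 and 0% of all genes in edgeR, with 0 members at an unadjusted p under 0.05 where 5.39% of all genes had one, and 0 members with DESeq2 or limma voom. Over all genes DESeq2 called 18 and limma voom 0. The edgeR estimates of non-additivity for the 78 ran between -0.30 and 0.34.

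The MRPS18 genes, which share a name, gave different values. MRPS18A, MRPS18B and MRPS18C are paralogs of 1 bacterial ribosomal protein, of which MRPS18A sits in the large subunit and the other two in the small subunit. MRPS18A had 11.5, 15.4 and 15.6 CPM in H3B-6527 tumors, 15.6, 16.4 and 16.3 CPM in combination tumors, 18.7, 17.7 and 17.1 CPM in lenvatinib tumors and 18.1, 20.4 and 16.7 CPM in vehicle tumors. It fell with H3B-6527 (log2 fold change -0.38, adjusted p = 0.0172, edgeR), a call lost without H3B-6527 tumor 1 or vehicle tumor 2 and with only the compared groups in the fit (adjusted p = 0.0703), and its change with the combination was -0.19 (adjusted p = 0.191, edgeR). MRPS18B had 82.4, 77.9 and 69.6 CPM in H3B-6527 tumors, 82.8, 71.4 and 76.1 CPM in combination tumors, 71.5, 72.7 and 62.9 CPM in lenvatinib tumors and 71.4, 67.5 and 69.7 CPM in vehicle tumors, with overlapping groups. Its changes were 0.14 with H3B-6527 (adjusted p = 0.199, edgeR) and 0.14 with the combination (adjusted p = 0.195, edgeR). MRPS18C had 15.6, 26.1 and 18.8 CPM in H3B-6527 tumors, 21.3, 17.9 and 20.7 CPM in combination tumors, 26.5, 26.2 and 23.6 CPM in lenvatinib tumors and 28.6, 22.2 and 29.7 CPM in vehicle tumors. It fell with the combination (log2 fold change -0.43, adjusted p = 0.0461, edgeR), though this call held under 8 of 18 alternatives and was lost with limma voom, without the filter on low counts, and without vehicle tumor 1, vehicle tumor 3, or any single lenvatinib or combination tumor, and its change with H3B-6527 was -0.41 (adjusted p = 0.0538, edgeR). The difference between the paralogs was not tested.

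MRPS30, the other large-subunit protein with a small-subunit symbol, had 26.2, 24.7 and 23.0 CPM in H3B-6527 tumors, 25.7, 23.7 and 23.3 CPM in combination tumors, 26.4, 30.6 and 25.3 CPM in lenvatinib tumors and 30.4, 26.9 and 29.4 CPM in vehicle tumors. Its fall with the combination (log2 fold change -0.25, adjusted p = 0.0399, edgeR) was lost without vehicle tumor 1, vehicle tumor 3, combination tumor 2 or combination tumor 3. It was also lost without the filter on low counts (adjusted p = 0.0689, edgeR). MRPS36 was not called, with changes of -0.14 with H3B-6527 (adjusted p = 0.44, edgeR) and 0.11 with the combination (adjusted p = 0.547, edgeR). Among the genes named whatever their values, MRPL44, MRPS22, MRPS16 and MRPS12 gave no call against vehicle. From the same list MRPL3, MRPL12 and MRPS27 fell with H3B-6527 and with the combination, as given above. MRPL44 had 26.1, 27.2 and 23.9 CPM with H3B-6527, 23.0, 25.9 and 24.97 CPM with the combination, 26.1, 25.6 and 22.4 CPM with lenvatinib and 27.8, 23.8 and 25.5 CPM with vehicle, among the narrowest ranges of group means with those of MRPL35 and MRPL10. MRPS22 changed by 0.09 with H3B-6527 (adjusted p = 0.407, edgeR) and 0.08 with the combination (adjusted p = 0.484, edgeR), and MRPS16 by -0.15 (adjusted p = 0.328, edgeR) and -0.17 (adjusted p = 0.286, edgeR). For MRPS12, a protein of the decoding center, the values were -0.16 with H3B-6527 (adjusted p = 0.577, edgeR) and -0.29 with the combination (adjusted p = 0.294, edgeR).

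**Figure D4:**
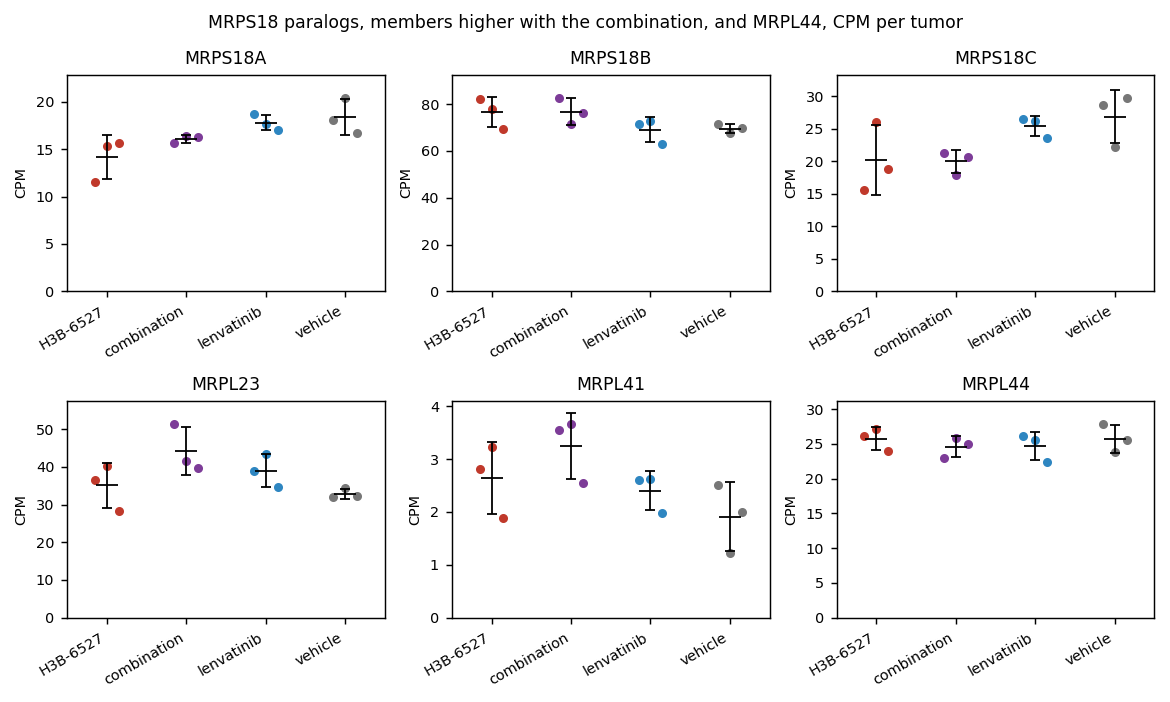
CPM per tumor for the MRPS18 paralogs, the 2 genes that rose with the combination (MRPL23 and MRPL41) and MRPL44, by treatment group; points are tumors, bars the mean and SD (n = 3). MRPS18B stays between 62.9 and 82.8 CPM and MRPL44 between 22.4 and 27.8 CPM with overlapping groups, while the MRPL23 values of the combination tumors, 39.6 to 51.4 CPM, lie above those of vehicle.

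The genes were also split by whether the protein has a bacterial counterpart. In this split MRPS18A and MRPS18B were placed among the genes without one, although they are paralogs of a bacterial ribosomal protein. Counts with them in the other class were not made. With H3B-6527, 11 of 46 genes with a counterpart fell (23.9%, median log2 fold change -0.17) and 7 of 31 genes without one (22.6%, median -0.23), against 24.3% of all genes. With the combination, 12 of the 46 fell (26.1%) and 1 rose, and 9 of the 31 fell (29%) and 1 rose, against 25.3% of all genes lower and 24.8% higher. The shares that fell lay near those of all genes in both classes. This grouping is given as a description and was not tested.

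Other genes of mitochondrial gene expression gave mixed directions. Their counts are to be read against all genes tested, of which 24.3% fell and 25.2% rose with H3B-6527, and 25.3% fell and 24.8% rose with the combination, with a median log2 fold change of 0.01 in each. Mitoribosomal proteins that carry other symbols numbered 5, of which 1 fell with H3B-6527 (median of the 5 -0.30) and 2 with the combination (median -0.20), and 0 rose. DAP3, a GTP-binding protein of the small subunit, had 111, 119 and 115 CPM in H3B-6527 tumors, 110.0, 112 and 112 CPM in combination tumors, 135, 138 and 130 CPM in lenvatinib tumors and 156, 136 and 157 CPM in vehicle tumors. It changed by -0.38 ± 0.07 with H3B-6527 (SE; adjusted p = 0.00103, edgeR) and -0.42 ± 0.07 with the combination (SE; adjusted p = 0.000435, edgeR), and PTCD3, a pentatricopeptide repeat protein of the same subunit, by -0.21 (adjusted p = 0.0558, edgeR) and -0.33 (adjusted p = 0.00543, edgeR). GADD45GIP1, CHCHD1 and AURKAIP1 were not called in either. Of 26 genes for mitoribosome assembly and rRNA modification, 5 fell and 2 rose with H3B-6527 (19.2% and 7.69%, median -0.08), and likewise 5 and 2 with the combination (median -0.13), so that the shares in both directions were below those over all genes. The RNA helicase DHX30 changed by -0.59 with H3B-6527 (adjusted p = 0.000127, edgeR), TFB1M, which methylates the small-subunit rRNA, by -0.65 (adjusted p = 0.000146, edgeR) and the RNA granule protein GRSF1 by -0.47 (adjusted p = 0.000659, edgeR), whereas MTERF4, which brings a methyltransferase to the large subunit, changed by 0.39 (adjusted p = 0.0031, edgeR). With the combination these 4 genes changed by -0.71, -0.62, -0.53 and 0.51.

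Of 17 translation factors, 3 fell and 2 rose with H3B-6527 (17.6% and 11.8%, median -0.07) and 4 fell and 3 rose with the combination (23.5% and 17.6%, median -0.10), again no larger shares than the 24.3% and 25.3% of all genes that fell. TACO1, an activator of translation of a cytochrome oxidase subunit, rose by 0.64 with H3B-6527 (adjusted p = 5.86e-05, edgeR) and the release factor gene MTRF1 by 0.52 (adjusted p = 0.00125, edgeR). The elongation factor gene GFM1 fell by 0.31 (adjusted p = 0.0305, edgeR) and the ribosome recycling factor gene MRRF by 0.23 (adjusted p = 0.0384, edgeR), both on the log2 scale and both lost with only the compared groups in the fit and without vehicle tumor 1 or vehicle tumor 3. GFM1 also lost its call without H3B-6527 tumor 1, and MRRF without vehicle tumor 2, H3B-6527 tumor 3 or combination tumor 3. The count of translation factors that fell was 0 with H3B-6527 when only the compared groups were in the fit, and 2 with the combination without vehicle tumor 1. Of 20 mitochondrial aminoacyl-tRNA synthetase genes, 5 fell and 2 rose with H3B-6527 (25% and 10%, median -0.01), and 6 fell and 3 rose with the combination (30% and 15%, median -0.10), with the shares that fell near those of all genes, 24.3% and 25.3%. The valyl-tRNA synthetase gene VARS2 changed by 0.62 with H3B-6527 (adjusted p = 0.000139, edgeR), and those for asparagine, glutamate and methionine, NARS2, EARS2 and MARS2, by -0.45, -0.52 and -0.79 (adjusted p between 0.000328 and 0.0018, edgeR).

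Of 16 regulators of mitochondrial DNA expression and biogenesis, 7 fell and 1 rose with H3B-6527 (43.8% and 6.25%, median -0.22), where 24.3% and 25.2% of all genes did, and 9 fell and 1 rose with the combination (56.2% and 6.25%, median -0.26), where 25.3% and 24.8% did. This list was chosen with earlier results of these data known, so its shares are a description and were not tested. It includes PPARGC1B, which averaged 0.242 CPM over all tumors. TFAM, which packages mitochondrial DNA and starts its transcription, had 27.1, 32.2 and 36.6 CPM in H3B-6527 tumors, 26.8, 29.6 and 32.2 CPM in combination tumors, 49.2, 61.9 and 49.7 CPM in lenvatinib tumors and 57.0, 51.0 and 62.3 CPM in vehicle tumors. It changed by -0.83 with H3B-6527 (adjusted p = 0.000185, edgeR) and -0.94 with the combination (adjusted p = 7.35e-05, edgeR). The DNA helicase gene TWNK changed by -1.73 and -1.56, the coactivator gene PPRC1 by -1.54 and -1.61, and MYC, a transcription factor for growth and ribosome genes, by -2.78 and -1.77 with H3B-6527 and the combination (adjusted p at most 6.62e-06, edgeR). The 1 gene of the list that rose was PPARGC1A, a coactivator of mitochondrial biogenesis, by 0.82 with H3B-6527 (adjusted p = 0.00162, edgeR) and 1.30 with the combination (adjusted p = 5.69e-05, edgeR); it is named after its values were seen. With library totals in place of TMM the lower counts were 5 of 5 proteins with other symbols, 9 of 26 assembly genes, 7 of 17 translation factors, 6 of 20 synthetase genes and 11 of 16 regulators with H3B-6527, and 2, 16, 9, 10 and 12 of these lists with the combination. Over all 15836 genes, library totals gave 4960 lower with H3B-6527 and 5339 with the combination, against 3842 and 4006 with TMM. Lenvatinib against vehicle gave 0 calls in each of these lists by edgeR with TMM.

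**Figure D5:**
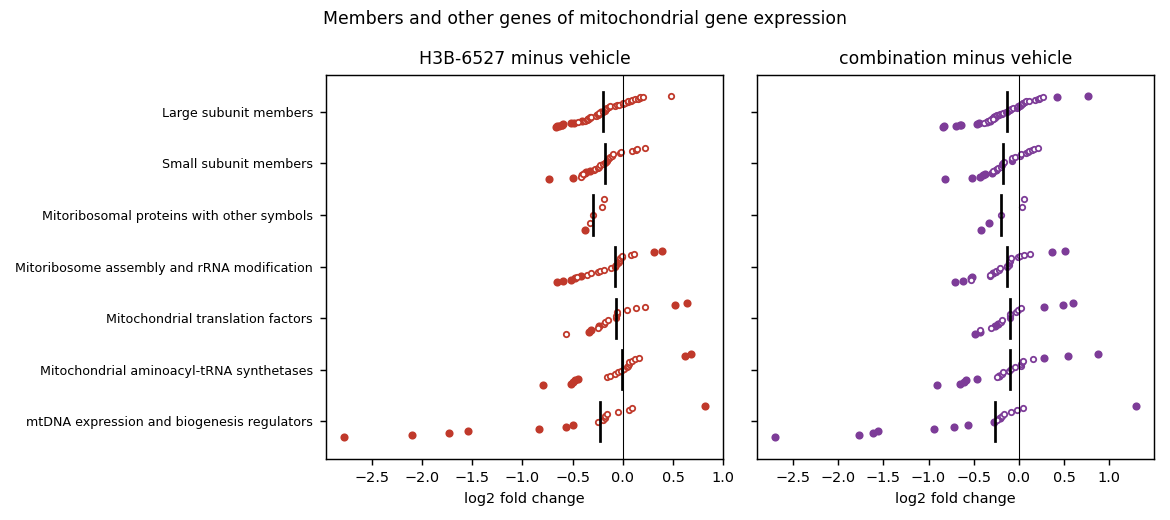
Log2 fold change against vehicle with H3B-6527 and with the combination for the large-subunit and small-subunit genes and for 5 lists of other genes of mitochondrial gene expression; each point is a gene, filled where it passed an adjusted p of 0.05, and black bars are medians. The lowest points belong to the regulators, among them MYC at -2.78 with H3B-6527, and the medians of the 2 subunits lie between -0.19 and -0.14.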

How the data were processed

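RNA-seq of 12 tumors in 4 groups of 3 was analysed. The authors deposited 1 table of estimated counts per gene (expected counts), raw and not normalized, which the table's own name calls kallisto gene counts; 40.3% of its values were not whole. STAR, kallisto, GRCh37 and GRCm38 are named in the submitters' processing notes, with no versions or roles. The submitters list the organism as mouse, while the rows carry human symbols. All sample columns were matched to a tumor by label; replicate numbers were given in accession order.

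Counts were rounded and tested with edgeR 4.0.16 (TMM, filterByExpr, robust quasi-likelihood fit of all 12 tumors without covariates, two-sided, Benjamini-Hochberg over 15836 genes, threshold 0.05) in R 4.3.3. SE is the log2 fold change divided by the root of F. Alternatives were RLE size factors, library totals, no filter on low counts, DESeq2 1.42.0, limma 3.58.1 voom, only the groups compared, and leaving out each tumor. Code was tested on simulated data. The number of reads limits precision, and p-values measure the spread between tumors of separate mice. No 2 tumors of a group agreed within sampling noise.

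The members and the gene lists were chosen with earlier results of these data known. Named in full against vehicle were, per subunit, up to 6 called genes with the largest change in the main direction and up to 4 in the other. Between treated groups up to 5 with the smallest p were named, from each other list 4, and 12 genes by name. Whether a gene has a bacterial counterpart was assigned after values were seen. MRPL23 and MRPS24 overlap rows named MRPL23-AS1 (226 counts in all, against 15840 for MRPL23) and URGCP-MRPS24 (450 against 15453), and paralogs may share reads. Strand use in counting is not given in the sources used here. Sequences, coordinates and promoter motifs were not used here.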

Additional observations from a re-analysis of the deposited data

How the results depend on the processing

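No called result changed direction under any alternative run. Against vehicle, 10 of 18 calls with H3B-6527 and 11 of 23 with the combination held under all 18 alternatives; between treated groups, 6 of 13 held for the combination against lenvatinib and 6 of 16 for H3B-6527 against lenvatinib. Lenvatinib against vehicle, combination against H3B-6527 and non-additivity stayed at 0 calls under each alternative run. With library totals the counts were 45 for H3B-6527 against vehicle, 34 for the combination against vehicle (all lower), 22 for the combination against lenvatinib and 30 for H3B-6527 against lenvatinib; with only the groups compared they were 10, 30 (26 lower, 4 higher), 21 and 6. In the same order, the main fit called 7829, 7930, 6329 and 6513 of all genes tested. Library totals called 7982, 8262, 6641 and 6551 of all genes, and only the groups compared 6361, 8792, 7002 and 4389. Leaving out 1 tumor gave 11 to 35 calls for H3B-6527 against vehicle, 11 to 30 for the combination against vehicle, 7 to 21 for the combination against lenvatinib and 10 to 33 for H3B-6527 against lenvatinib. Over all genes, these fits called 6344 to 8386, 6528 to 8787, 4620 to 7451 and 4854 to 7326 in the same order. The cause was not tested. Library totals gave sums of 1053 CPM (large, combination), 1328 CPM (large, vehicle), 684 CPM (small, combination) and 832 CPM (small, vehicle). Subunits assigned by structure gave 1143 CPM (large, combination) and, for the small subunit, 664, 733 and 730 CPM in combination, lenvatinib and vehicle tumors.

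No paired analysis was possible because the labels give no replicate numbers and nothing ties a mouse of one group to a mouse of another. With 3 tumors per group, the number of genes that pass depends on single tumors. Levels are not corrected for gene length and are not compared between genes.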
